A study of Mus musculus with 8 samples.

Results

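The genes described here encode the nuclear subunits of the oxidative phosphorylation system, and they were chosen by name, as every gene symbol of the deposited expression values that starts with Ndufa, Ndufb, Ndufc, Ndufs or Ndufv, is Sdha to Sdhd, or starts with Uqcr, Cox4 to Cox8 or Atp5. This name rule and the gene lists used below were chosen with earlier results of these data known. Of 15047 gene symbols, 93 matched. Ndufb4, Ndufb4b and Ndufb4c held identical values in every mouse, which makes them 1 measurement under 3 names, so 91 genes were counted. They were 36 subunits of complex I, 4 of complex II, 8 of complex III, 17 of complex IV with Ndufa4 and Ndufa4l2 placed there, 16 of complex V, and 10 genes that the name rule also took but that encode no subunit. The 10 were the complex I assembly factors Ndufaf1 to Ndufaf8, the supercomplex factor Cox7a2l, and Atp5s. No symbol of the mitochondrial genome, which would start with mt-, was in the values, so the subunits encoded there were not analysed here.

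The mitochondrial respiratory chain passes electrons from NADH, through complex I, or from succinate, through complex II, to ubiquinone, then through complex III and cytochrome c to complex IV, where oxygen is reduced. Complexes I, III and IV pump protons across the inner membrane, and complex V, the ATP synthase, uses the return of these protons to make ATP. In the pancreas the acinar cells, which make and secrete digestive enzymes, spend much of this ATP on protein synthesis and secretion, while some subunits of complex IV exist as tissue isoforms, such as Cox7a1 of heart, skeletal muscle and brown fat beside the broadly expressed Cox7a2.

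RNA-Seq was made from pancreas tissue of 8 male mice. The 3 LFD and 3 HFD mice were C57BL/6 WT animals put on a low-fat or a high-fat diet at the age of 4 weeks for 10 weeks, the latter with 60% of its calories as fat. The 2 ob/ob mice were C57BL/6J animals that lack leptin and, from the same age and for the same time, ate standard chow, so genotype and diet both set them apart from the LFD mice. Per the study's methods, the animals also carried orthotopic grafts of mT organoids, grown from mouse pancreatic tumors, which the sample labels do not mention, so graft and host RNA cannot be told apart. The values are rlog values, which are on a log2 scale, corrected for library size and shrunken for genes with few reads. A difference below is a difference of group means of rlog values, given with the standard error of limma, and sequencing depth is unknown. HFD and ob/ob were each compared with the same 3 LFD mice, and "obese" stands for the average of both obese groups, each given the same weight.

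Most of the 91 genes had lower means in the obese groups, by small amounts that did not pass the test. In HFD against LFD, 75 of 91 genes were lower, with a median difference of -0.19, and in ob/ob against LFD 82 were lower, with a median of -0.37. The medians over all 15047 genes were 0.03 and 0.04, and 47.6% and 46.9% of all genes were lower. For obese against LFD, 81 genes were lower, with a median of -0.29, or 0.819-fold, while 46.5% of all genes were lower, with a median of 0.04. By limma with Benjamini-Hochberg adjustment over all genes, 0 of the 91 and 0 of the 15047 passed an adjusted p-value of 0.05 in any comparison, and the lowest adjusted p-values of the 91 were 0.180 for HFD, 0.200 for ob/ob and 0.107 for obese mice.

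At an unadjusted p-value under 0.05, 5 of 91 genes, or 5.49%, were lower in HFD, against 8.35% of all genes, and 1 was higher, against 11.5%. In ob/ob mice 9, or 9.89%, were lower, against 7.18% of all genes, and 0 were higher, against 11.6%. In obese against LFD mice 11, or 12.1%, were lower, against 10.9%, and 1 was higher, against 14.5%. Counts of single genes below this threshold were therefore near the share of all genes for the lower side and under it for the higher side. Counting genes whose groups did not overlap, 9 were lower in every HFD than in every LFD mouse, against 12.3% of all genes, and 1 was higher, against 12.9%. In ob/ob mice 40 of 91, or 44.0%, were below every LFD mouse, against 21.8% of all genes, and 2 were above, against 24.1%. Over all 5 obese mice, 8 were lower, against 9.05%, and 1 was higher, against 9.4%. Between the obese groups, 78 of 91 genes had a lower mean in ob/ob than in HFD mice, with a median of -0.17. Of all genes, 48.3% were lower, with a median of 0.01. By limma, 0 of the 91 in either direction had an unadjusted p-value under 0.05, against 1.63% of all genes lower and 2.28% higher. Both ob/ob mice were below every HFD mouse in 5 genes, or 5.49%, against 5.42% of all genes. They were above in 3, or 3.30%, against 7.92%. The median of -0.17 became 0.04 without HFD replicate 1 and 0.01 without ob/ob replicate 2, so its direction rested on these mice.

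The mice of a group differed as much as the groups did. The median over the 91 genes of the difference from the LFD mean was -0.22, -0.02 and 0.26 in the LFD mice, 0.15, -0.30 and -0.50 in the HFD mice, and -0.24 and -0.51 in the ob/ob mice. HFD replicate 1 lay within the LFD mice. HFD replicates 2 and 3 and both ob/ob mice lay below all of them. For ob/ob replicate 1 this was only just so, at -0.24 against -0.22 in the lowest LFD mouse. In HFD replicate 1, 10 of 91 genes were below all LFD mice, against 55 and 74 in HFD replicates 2 and 3, and 40 and 74 in the ob/ob mice. Of all 15047 genes, 4190 were below all LFD mice in HFD replicate 1, 4956 and 5441 in HFD replicates 2 and 3. In the ob/ob mice they were 4515 and 5236. The median residual SD was 0.336 for the 91 genes and 0.342 for all genes.

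**Figure D1:**
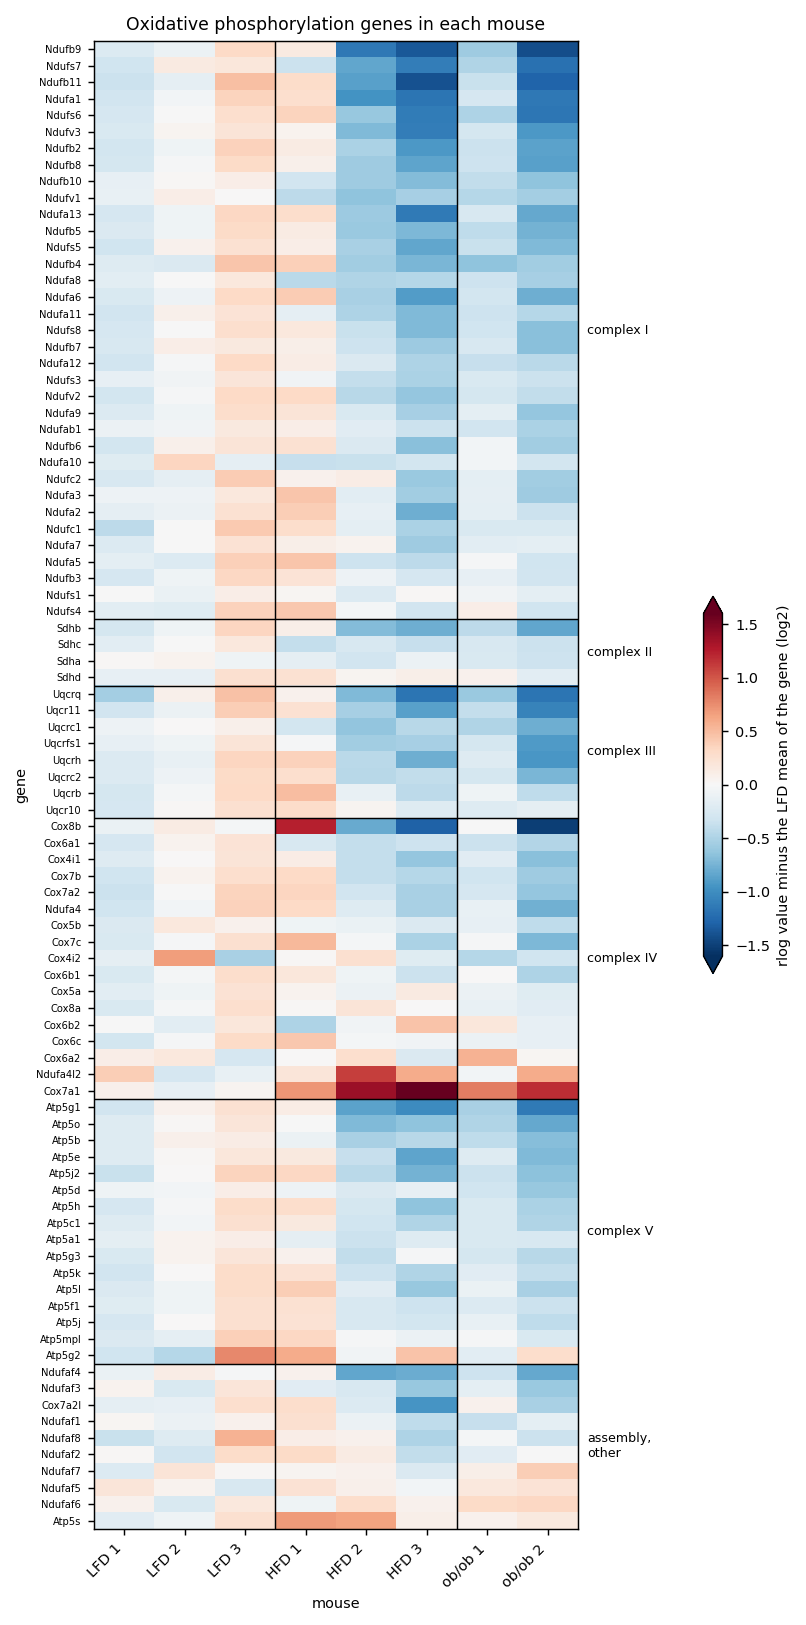
Difference of the genes, 1 of the 91 not drawn (vertical axis, grouped by complex and ordered by the obese against LFD difference) from its LFD mean in each of the 8 mice (horizontal axis), in log2 units of the rlog value, blue for lower and red for higher. HFD 2, HFD 3 and ob/ob 2 are blue over most of complexes I, III and V, HFD 1 resembles the LFD mice, and Cox7a1 is the reddest row across the 5 obese mice.

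When each mouse was left out in turn, HFD replicate 1 changed the calls most. Without it, 16 of the 91 genes had a lower mean in obese than in LFD mice at an adjusted p-value under 0.05, against 9.35% of all genes, and 1, Cox7a1, a higher mean, against 12.8%. In HFD against LFD without this mouse, 9 genes were lower at that threshold, against 7.84% of all genes, and 1, again Cox7a1, was higher, against 10.8%. The 11 genes lower at an unadjusted p-value under 0.05 in obese mice became 40 without HFD replicate 1, or 44.0% against 17.5% of all genes, 17 without ob/ob replicate 1, 6 without HFD replicate 3, 5 without HFD replicate 2, LFD replicate 2 or ob/ob replicate 2, and 4 without LFD replicate 3. The 5 genes lower in HFD became 32 without HFD replicate 1, or 35.2% against 16.4%, 8 without LFD replicate 1, 3 without HFD replicate 3, 2 without HFD replicate 2 or LFD replicate 2, and 1 without LFD replicate 3. The 9 lower in ob/ob became 24 without HFD replicate 1, or 26.4% against 11.7%, a mouse that enters this comparison only through the shared spread, and 2 without LFD replicate 3, 1 without LFD replicate 2 and 0 without ob/ob replicate 2. The share of all genes that were lower thus rose too without HFD replicate 1, and without any 1 of the other mice it was 5.10% to 13.8% in obese, 3.68% to 9.27% in HFD and 0.964% to 11.2% in ob/ob mice.

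The medians over the 91 genes also moved, and stayed below 0 against LFD without any 1 mouse. The HFD median of -0.19 became -0.39 without HFD replicate 1, -0.34 without LFD replicate 1, -0.09 without LFD replicate 3 and -0.06 without HFD replicate 3. The ob/ob median of -0.37 became -0.24 without ob/ob replicate 2, and the obese median of -0.29 became -0.17 without LFD replicate 3.

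Acinar transcripts were low in the same mice as these genes. All 20 acinar marker genes, which include the digestive enzymes Prss2, Cpa1 and Pnlip, were in the values, and the lowest value of any of them was 3.21, for Prss1 in HFD replicate 3. Their mean rlog value was 17.65, 17.85 and 18.08 in the LFD mice, 17.98, 15.86 and 13.97 in the HFD mice, and 17.26 and 14.27 in the ob/ob mice. The mice with the lowest acinar values, HFD replicates 2 and 3 and ob/ob replicate 2, were those with the lowest oxidative phosphorylation values, and HFD replicate 1 had LFD-like values of both. All 20 acinar genes had lower means in HFD and in ob/ob than in LFD mice, with median differences of -1.95 and -2.09, and none passed the adjusted threshold. With the acinar mean as a covariate in limma, 44 of 91 genes were lower in obese mice with a median of 0.01, 31 in HFD with a median of 0.07, and 54 in ob/ob with a median of -0.05, so the lower medians were not seen beside this covariate. In bulk tissue, fewer cells of a type and less RNA per cell cannot be told apart, and the part of the acinar cells in each result was not tested further.

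Markers of macrophages and neutrophils and of fibroblasts had higher means in both obese groups. The mean of 9 macrophage and neutrophil genes was 8.34 to 8.83 in LFD, 9.42 to 10.26 in HFD and 9.91 to 10.45 in ob/ob mice, and all 9 had higher means in both obese groups. The mean of 9 fibroblast genes was 9.52 to 10.02, 10.38 to 11.16 and 10.65 to 11.68, with 8 and 9 of 9 higher. The 7 lymphocyte genes had a mean of 3.38 to 5.45 in LFD, 3.92 to 4.50 in HFD and 3.97 to 4.18 in ob/ob mice, with 4 of 7 lower in HFD and 3 of 7 in ob/ob mice, and their groups overlapped. The groups also overlapped in the means of the endothelial and the white adipocyte list. The 10 islet genes had a mean of 8.63 to 9.56 in LFD, 8.10 to 8.80 in HFD and 9.18 to 10.16 in ob/ob mice. The ductal list was at 10.09 to 10.36, 10.30 to 10.76 and 9.26 to 10.32. Both of these lists lay on opposite sides of LFD in the HFD and ob/ob mice by their means.

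Scaling decided the direction on an absolute scale. The acinar transcripts filled 57.6% to 59.3% of the summed values, taken off the log scale, of the LFD mice, 56.4%, 37.7% and 20.0% of the HFD mice and 53.7% and 22.5% of the ob/ob mice. As a share of that sum, the 91 genes held 0.149% to 0.163% in LFD, 0.157%, 0.364% and 0.621% in HFD, and 0.199% and 0.540% in ob/ob mice. With the acinar list taken out of the sum, they held 0.366% to 0.388% in LFD and 0.360%, 0.584% and 0.777% in HFD mice. In the ob/ob mice this share was 0.430% and 0.697%. With each mouse scaled to its sum, a setting chosen after seeing the data, all 91 genes were higher in obese mice with a median of 1.12, but the median of all genes was 1.45, so that relative to all genes the 91 again lay lower. Every lower or higher below is on the deposited scale, on which the median of all genes moved by 0.04.

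**Figure D2:**
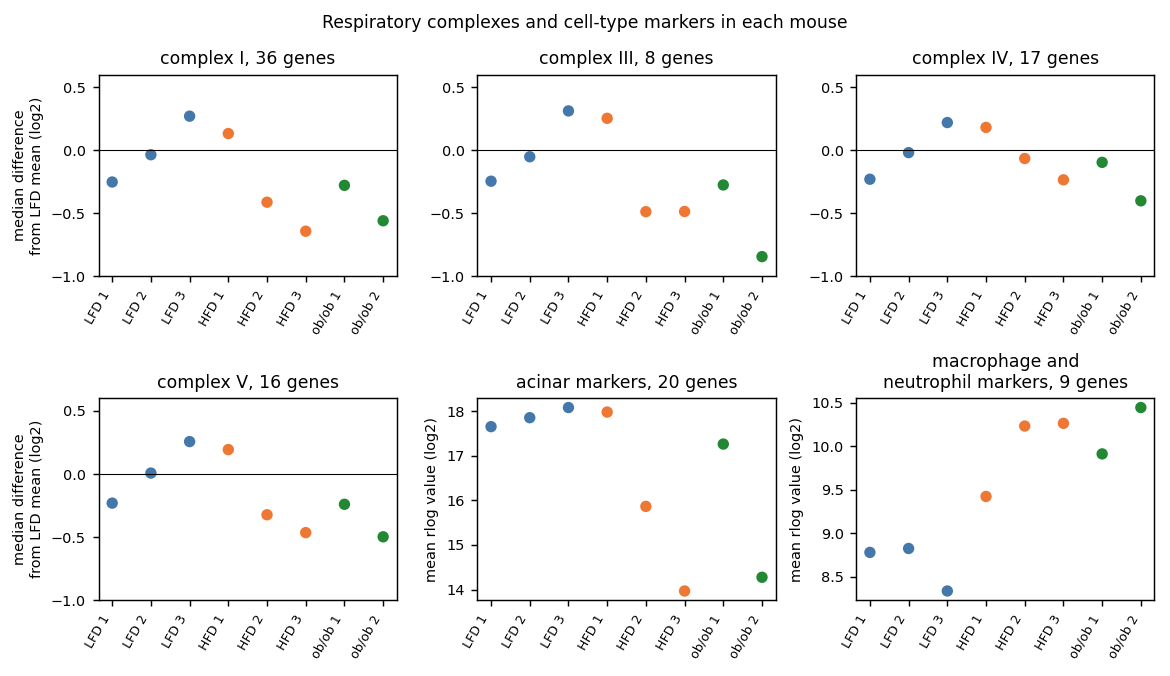
Median difference from the LFD mean over the genes of complexes I, III, IV and V (log2) and mean rlog value of the acinar and of the macrophage and neutrophil markers, 1 point per mouse, in blue for LFD, orange for HFD and green for ob/ob. The acinar panel runs from 18.08 in LFD 3 to 13.97 in HFD 3, and HFD 1 stays at 17.98 with complex medians above 0.

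Promoters are printed here because many of these genes were lower in the same mice while Cox7a1 was above every LFD mouse in all 5 obese mice. RefSeq (GRCm38.p6) gave a promoter of 300 bases, from 250 before to 50 after the start, for 75 of the 91 genes. It was searched on both strands for GCGCATGC, the core of the NRF1 site, for CCGGAAG, the core of the ETS site bound by GABPA, and for AAGATGGCG, the core of the YY1 site. These factors are known from textbook work on nuclear respiratory genes. The NRF1 core can overlap itself, and the ETS core can overlap the YY1 core in the letters AAG. The NRF1 core was in 12 of 75 promoters, or 16%, against 3.05% of the genes with a promoter in RefSeq and 5.34% of those also in the expression values. The ETS core was in 18, or 24%, against 9.93% and 18.0%, and the YY1 core in 8, or 10.7%, against 1.64% and 3.13%. The median obese against LFD difference was -0.43 for the 12 genes with the NRF1 core and -0.29 for the 63 without, -0.28 for the 18 with the ETS core and -0.30 for the 57 without, and -0.24 for the 8 with the YY1 core and -0.30 for the 67 without. It was -0.30 for the 31 genes with any of the 3 and -0.29 for the 44 with none, and none of these differences was tested. The 250 bases before the start are shown for Sdhb and Ndufa8, which had lower means in obese mice and are both among the 12 genes with the NRF1 core. The same window is shown for Cox6a1 and Cox7a1, which are both in complex IV and had differences of opposite sign. The NRF1 and ETS cores are in capitals. These genes are examples and do not stand for the 75, of which 44 hold none of the 3 cores.
Sdhb, chr4:140961021-140961270, plus strand: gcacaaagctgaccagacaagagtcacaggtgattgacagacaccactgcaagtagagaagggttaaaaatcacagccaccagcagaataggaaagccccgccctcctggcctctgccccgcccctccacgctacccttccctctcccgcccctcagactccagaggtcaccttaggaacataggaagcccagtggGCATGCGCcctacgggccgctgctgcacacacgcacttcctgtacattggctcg
Ndufa8, chr2:36049339-36049588, minus strand: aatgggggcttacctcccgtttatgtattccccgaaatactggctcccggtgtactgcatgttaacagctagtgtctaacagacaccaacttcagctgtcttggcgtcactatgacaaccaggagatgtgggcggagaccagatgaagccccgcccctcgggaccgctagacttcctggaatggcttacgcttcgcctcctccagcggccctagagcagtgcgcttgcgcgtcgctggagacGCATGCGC
Cox6a1, chr5:115348959-115349208, minus strand: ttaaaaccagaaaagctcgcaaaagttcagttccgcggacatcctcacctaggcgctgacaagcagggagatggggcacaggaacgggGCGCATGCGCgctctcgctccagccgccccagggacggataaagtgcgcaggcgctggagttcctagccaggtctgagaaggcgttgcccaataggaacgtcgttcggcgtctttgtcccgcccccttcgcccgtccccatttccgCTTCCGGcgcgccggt
Cox7a1, chr7:30183921-30184170, plus strand: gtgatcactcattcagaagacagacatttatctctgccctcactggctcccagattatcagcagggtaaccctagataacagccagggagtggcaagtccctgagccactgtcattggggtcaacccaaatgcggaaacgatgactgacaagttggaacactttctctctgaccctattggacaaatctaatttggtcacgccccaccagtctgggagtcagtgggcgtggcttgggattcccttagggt
Sdhb and Ndufa8 hold 1 NRF1 core each in this window, Cox6a1 holds 2 overlapping NRF1 cores and 1 ETS core, and the Cox7a1 window holds none of these letters. Sdhb is also counted among the 18 genes with an ETS core. That core lies in the 50 searched bases after the start, which are not shown.

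Complex I, which oxidizes NADH, had lower means for 36 of 36 subunits in obese mice, with a median of -0.38, for 35 of 36 in HFD, with a median of -0.31, and for 36 of 36 in ob/ob, with a median of -0.42. Across mice, its median difference from the LFD mean was -0.25, -0.04 and 0.27 in the LFD mice, 0.13, -0.41 and -0.64 in the HFD mice, and -0.28 and -0.56 in the ob/ob mice. HFD replicate 1 lay among the LFD mice and the 4 other obese mice below them. In obese mice, 5 of 36 subunits, or 13.9%, had an unadjusted p-value under 0.05, all lower, against 10.9% of all genes. The 4 of 36 that lay below every LFD mouse were 11.1%, against 9.05%, so both shares were near those of all genes.

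Ndufv1, the flavin subunit that takes the electrons from NADH (chr19:4007384-4012806, Gencode M21 on GRCm38), was 10.05, 10.28 and 10.18 in the LFD mice, 9.76, 9.53 and 9.64 in the HFD mice, and 9.71 and 9.62 in the ob/ob mice. It lay lower in all 5 obese mice, HFD replicate 1 included, and the obese against LFD difference was -0.52 ± 0.13 (adjusted p = 0.107 by limma). Its iron-sulfur partners in the NADH module had smaller differences. Ndufs1, with the smallest spread over the 8 mice of all complex I genes, had a difference of -0.08 ± 0.14 (adjusted p = 0.73), and Ndufv2 of -0.29 ± 0.24 (adjusted p = 0.451). In the Q module, which hands the electrons to ubiquinone, Ndufs7 was 8.72, 9.17 and 9.22 in the LFD mice, 8.69, 8.20 and 7.93 in the HFD mice, and 8.56 and 7.84 in the ob/ob mice. Its groups did not overlap, though HFD replicate 1 was only just below the lowest LFD mouse, and the difference was -0.80 ± 0.24 (adjusted p = 0.122). The differences of Ndufs3 and Ndufs8 were -0.30 and -0.39, with adjusted p-values of 0.259 and 0.293, and their groups overlapped.

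Of the accessory subunits of complex I, Ndufb10, Ndufa8 and Ndufb9 were singled out after their values were seen. Ndufb10 of the membrane arm was 8.89, 9.04 and 9.13 in the LFD mice, 8.72, 8.45 and 8.32 in the HFD mice, and 8.63 and 8.38 in the ob/ob mice, which put all obese mice below all LFD mice, with a difference of -0.52 ± 0.16 (adjusted p = 0.121). Ndufa8 did not overlap either, at 8.38 to 8.71 in LFD and 8.02 to 8.21 in the 5 obese mice, with a difference of -0.44 ± 0.15 (adjusted p = 0.133). Ndufb9 had the lowest mean difference of the 91 genes, -0.89 ± 0.36 (adjusted p = 0.177), but its values were 10.88, 11.01 and 11.42 in the LFD mice, 11.25, 9.96 and 9.75 in the HFD mice, and 10.54 and 9.69 in the ob/ob mice, and HFD replicate 1 was above an LFD mouse. Ndufb11, with the largest spread over the mice in complex I, was 9.91, 10.11 and 10.72 in the LFD mice, 10.54, 9.38 and 8.85 in the HFD mice, and 9.88 and 8.96 in the ob/ob mice, and only HFD replicates 2 and 3 and both ob/ob mice lay below the LFD values (adjusted p = 0.267). Ndufs4, an accessory subunit near the NADH module, was the 1 subunit of complex I with a higher mean in HFD, by 0.03 ± 0.25 (adjusted p = 0.953). By position, all 19 membrane-arm subunits were lower in obese mice with a median of -0.45, and all 16 matrix-arm subunits with a median of -0.30, while Ndufab1, the acyl carrier protein, was placed in neither. This split was made after the data were seen and the difference between the arms was not tested.

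**Figure D3:**
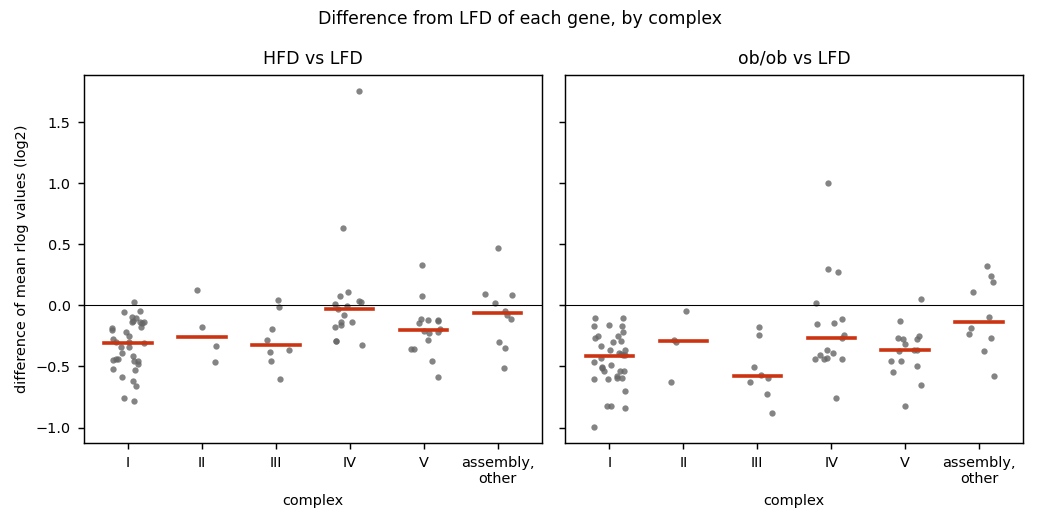
Difference of group means of rlog values (log2, vertical axis) of each gene, 1 point per gene, for HFD against LFD (left) and ob/ob against LFD (right), by complex, with red bars for the median of a complex. The medians are between -0.03 and -0.33 in HFD and between -0.14 and -0.58 in ob/ob, and the high point of complex IV in both panels is Cox7a1.

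Complex II, succinate dehydrogenase, also belongs to the tricarboxylic acid cycle, and 3 of its 4 subunits had lower means in obese mice. Its catalytic flavin subunit Sdha was 10.72, 10.75 and 10.63 in the LFD mice, 10.56, 10.40 and 10.61 in the HFD mice, and 10.46 and 10.37 in the ob/ob mice. All 5 obese mice were below all LFD mice, the nearest only just, and the difference was -0.23 ± 0.13 (adjusted p = 0.285). Sdhc, a membrane anchor that binds ubiquinone, also did not overlap, with LFD mice at 9.28 to 9.63 and obese mice at 9.08 to 9.20, and a difference of -0.32 ± 0.14 (adjusted p = 0.191). The iron-sulfur subunit Sdhb, with the largest spread in complex II, was 10.32, 10.53 and 10.95 in the LFD mice, 10.70, 9.91 and 9.82 in the HFD mice, and 10.18 and 9.77 in the ob/ob mice, with a difference of -0.54 ± 0.25 (adjusted p = 0.21), and HFD replicate 1 was within the LFD range. The second anchor, Sdhd, had a difference of 0.04 ± 0.15 (adjusted p = 0.896) and overlapping groups, unlike Sdhc.

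Complex III, which passes electrons from ubiquinol to cytochrome c, had lower means for 8 of 8 subunits in obese mice, with a median of -0.45, and medians of -0.33 in HFD and -0.58 in ob/ob mice. The matrix-side core protein Uqcrc1 (chr9:108936633-108949623) was 10.42, 10.52 and 10.59 in the LFD mice, 10.21, 9.88 and 10.07 in the HFD mice, and 10.03 and 9.73 in the ob/ob mice. All obese mice were below all LFD mice, and the difference was -0.54 ± 0.15 (adjusted p = 0.11), the lowest p-value of complex III in each comparison with LFD. Its partner Uqcrc2 overlapped, with a difference of -0.35 ± 0.22 (adjusted p = 0.342), and HFD replicate 1 at 10.93 lay near the highest LFD value of 10.97. The Rieske iron-sulfur protein Uqcrfs1 was 9.74, 9.81 and 10.08 in the LFD mice, 9.86, 9.32 and 9.35 in the HFD mice, and 9.60 and 8.97 in the ob/ob mice, with HFD replicate 1 among the LFD mice and a difference of -0.48 ± 0.21 (adjusted p = 0.189). The small subunits showed both extremes of the complex. Uqcrq, with the largest spread, had a difference of -0.74 ± 0.33 (adjusted p = 0.199), and Uqcr10, with the smallest, one of -0.07 ± 0.18 (adjusted p = 0.834).

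Complex IV, cytochrome c oxidase, had the smallest median difference among complexes I to V, -0.18 in obese, -0.03 in HFD and -0.27 in ob/ob mice, with 13 of 17 genes lower in obese mice. Whether it differed from the other complexes was not tested. Of the subunits present in all tissues, Cox5a was 8.72 to 9.13 in LFD and 8.70 to 9.04 in obese mice, with a difference of -0.05 ± 0.15 (adjusted p = 0.843), and Cox5b had a difference of -0.20 ± 0.15 (adjusted p = 0.404). Among the broadly expressed partners of isoforms, Cox6a1 was 9.47, 9.80 and 9.97 in the LFD mice, 9.49, 9.36 and 9.41 in the HFD mice, and 9.41 and 9.28 in the ob/ob mice, and its difference of -0.36 ± 0.15 (adjusted p = 0.183) was the 1 lower value of the complex with an unadjusted p-value under 0.05. HFD replicate 1 was just above the lowest LFD mouse. Cox4i1, Cox7a2, Cox7b, Ndufa4, Cox6b1 and Cox8a had obese against LFD differences of -0.36, -0.30, -0.31, -0.29, -0.16 and -0.04, with adjusted p-values between 0.310 and 0.903 and overlapping groups.

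The tissue isoforms of complex IV had mean rlog values under 5, a range in which rlog shrinks differences. Cox7a1, the isoform of heart, skeletal muscle and brown fat (chr7:30184144-30186078), was 2.60, 2.40 and 2.57 in the LFD mice, 3.23, 3.89 and 5.71 in the HFD mice, and 3.35 and 3.71 in the ob/ob mice. Every obese mouse was above every LFD mouse, and HFD replicate 3 was the highest. The difference was 1.38 ± 0.50 in obese mice (adjusted p = 0.151), 1.75 ± 0.56 in HFD (adjusted p = 0.193) and 1.00 ± 0.63 in ob/ob mice (adjusted p = 0.381). In HFD and in obese mice, Cox7a1 was the 1 gene of the 91 with an unadjusted p-value under 0.05 by limma on the higher side. In ob/ob mice there were 0. The p-value in obese mice rose above 0.05 when any LFD mouse or ob/ob replicate 2 was left out, and also when the acinar mean entered the fit, which gave differences of 0.50 ± 0.41 in obese, 0.92 ± 0.44 in HFD and 0.09 ± 0.48 in ob/ob mice (adjusted p = 0.696, 0.485 and 0.967). The HFD difference was 1.04 without HFD replicate 3 and 2.28 without HFD replicate 1, and Cox7a1 is under the filter of a mean rlog value of 5. The log2 ratio of Cox7a1 to Cox7a2, set to 0 at the LFD mean, was 0.36, 1.68 and 3.71 in the HFD mice and 1.09 and 1.80 in the ob/ob mice, against -0.31 to 0.43 in LFD. On this scale HFD replicate 1 fell within the LFD mice.

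In no other isoform were all obese mice on 1 side of the LFD mice. Cox8b, also of heart, muscle and brown fat, was 2.83, 3.07 and 2.89 in the LFD mice, 4.17, 2.12 and 1.63 in the HFD mice, and 2.92 and 1.42 in the ob/ob mice, with the highest value in HFD replicate 1 and the lowest in HFD replicate 3 and ob/ob replicate 2, and a difference of -0.52 ± 0.58 (adjusted p = 0.585). Cox6a2, the muscle isoform, was 1.32 to 2.15 over all mice with a difference of 0.16 ± 0.24 (adjusted p = 0.698). Cox4i2, the lung isoform, was 1.59 to 2.77 with a difference of -0.18 ± 0.30 (adjusted p = 0.721). Cox6b2 of testis was 1.64 to 2.59 with a difference of -0.00426 ± 0.27 (adjusted p = 0.993). Ndufa4l2, a paralog of Ndufa4 known from hypoxic cells and pericytes, was 4.05, 3.39 and 3.54 in the LFD mice, 3.85, 4.76 and 4.24 in the HFD mice, and 3.61 and 4.25 in the ob/ob mice, with overlapping groups and a difference of 0.45 ± 0.31 (adjusted p = 0.365). The isoforms Cox7b2 and Cox8c were not analysed here.

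**Figure D4:**
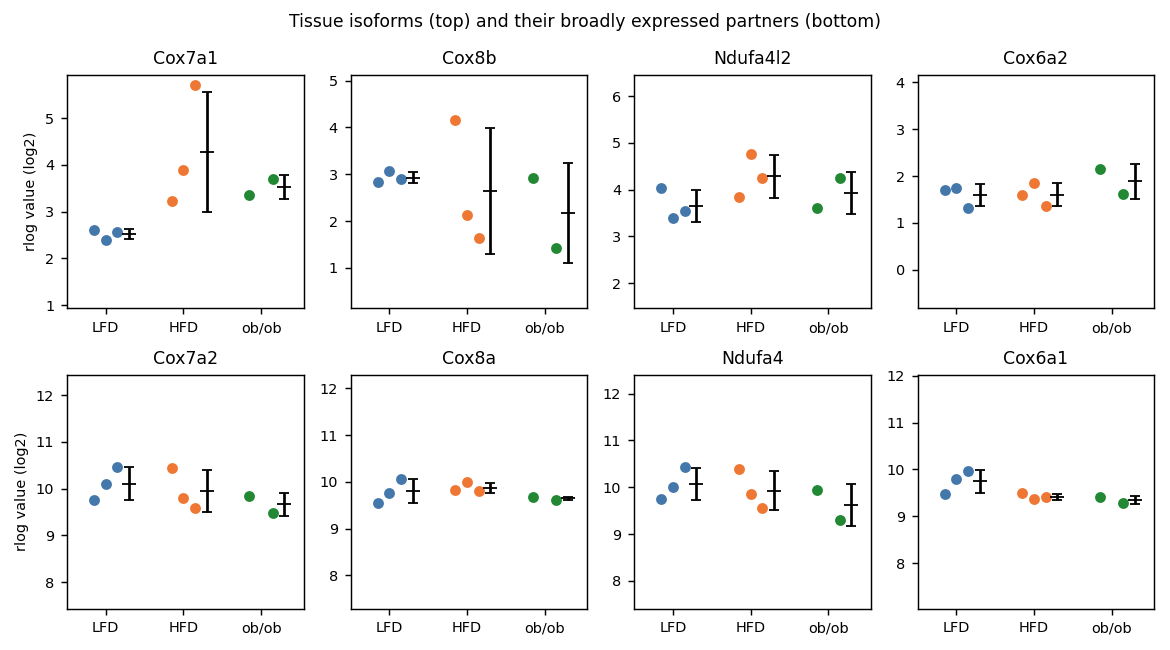
Rlog values (log2, vertical axis) of 4 tissue isoforms (top row) and their broadly expressed partners (bottom row) by group, 1 point per mouse, with the group mean and SD as black bars beside the points and the same length of axis in every panel. Cox7a1 is higher in all 5 obese mice, while Cox8b spreads from 1.42 to 4.17 with no order by group.

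Markers of the tissues known for Cox7a1 were only partly in the values. Of 8 brown adipocyte genes, which include Cox7a1 and Cox8b themselves, Ucp1 and Elovl3 were not among the values. The mean of the other 6 was 3.87 to 4.15 in LFD, 4.20 to 4.77 in HFD and 3.77 to 4.22 in ob/ob mice. Cox7a1 enters this mean, so the higher HFD values are not a measure of brown adipocytes apart from it. Of the 6 genes, 4 had higher means in HFD, 2 in ob/ob and 4 in obese mice, with Cox7a1 counted each time. Among these, Prdm16 had a difference of -1.57 ± 0.27 (adjusted p = 0.081) and Dio2 one of 1.51 ± 0.41 (adjusted p = 0.109). Of 11 skeletal muscle genes, 4 were in the values, and Ckm had a difference of -1.37 ± 0.55 (adjusted p = 0.173) while Tnni2 had one of 0.75 ± 0.26 (adjusted p = 0.141). The mean rlog value of 9 pericyte and smooth muscle genes overlapped between groups, at 6.59 to 7.21 in LFD, 6.60 to 7.77 in HFD and 7.07 to 7.23 in ob/ob mice. The part of any of these cells in the Cox7a1 values was not tested.

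Complex V, the ATP synthase, had lower means for 15 of 16 subunits in obese mice, with medians of -0.26 in obese, -0.20 in HFD and -0.36 in ob/ob mice. The catalytic beta subunit Atp5b was 12.95, 13.24 and 13.27 in the LFD mice, 13.06, 12.63 and 12.71 in the HFD mice, and 12.75 and 12.47 in the ob/ob mice, with HFD replicate 1 within the LFD range and a difference of -0.45 ± 0.21 (adjusted p = 0.209). The alpha subunit Atp5a1, with the smallest spread in complex V, had a difference of -0.24 ± 0.17 (adjusted p = 0.378), and Atp5c1, the gamma subunit of the rotor shaft, one of -0.29 ± 0.20 (adjusted p = 0.363). Atp5d of the F1 part was 9.11, 9.13 and 9.28 in the LFD mice, 9.10, 8.94 and 9.04 in the HFD mice, and 8.86 and 8.57 in the ob/ob mice. All obese mice were below all LFD mice, HFD replicate 1 only just, and the ob/ob against LFD difference of -0.46 ± 0.17 (adjusted p = 0.232) was larger than that of HFD, -0.15 ± 0.15 (adjusted p = 0.599). The ob/ob against HFD difference was -0.31 ± 0.17 (adjusted p = 0.9996). Atp5o of the peripheral stalk was 10.75, 10.97 and 11.15 in the LFD mice, 10.95, 10.25 and 10.31 in the HFD mice, and 10.48 and 10.13 in the ob/ob mice, with HFD replicate 1 within the LFD range and an obese against LFD difference of -0.55 ± 0.21 (adjusted p = 0.156).

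Atp5g1, Atp5g2 and Atp5g3 encode the same mature c subunit of the membrane ring, and their differences had unlike signs. Atp5g1, with the largest spread in complex V, was 10.38, 10.75 and 10.93 in the LFD mice, 10.80, 9.83 and 9.67 in the HFD mice, and 10.16 and 9.56 in the ob/ob mice. HFD replicate 1 lay within the LFD mice and the other 4 obese mice below them, with a difference of -0.70 ± 0.29 (adjusted p = 0.177). Atp5g3 had a difference of -0.24 ± 0.17 (adjusted p = 0.383). Atp5g2 was 6.39, 6.24 and 7.48 in the LFD mice, 7.29, 6.65 and 7.16 in the HFD mice, and 6.53 and 6.98 in the ob/ob mice, the 1 subunit of complex V with a higher obese mean, by 0.19 ± 0.32 (adjusted p = 0.728), and its LFD mice alone spanned 6.24 to 7.48. The log2 ratio of Atp5g1 to Atp5g3, set to 0 at the LFD mean, was -0.07 to 0.05 in LFD mice, 0.05, -0.46 and -0.99 in HFD mice and -0.25 and -0.68 in ob/ob mice.

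The 10 genes that encode no subunit were mixed, with 6 lower in obese mice and a median of -0.09. The complex I assembly factor Ndufaf4 was 7.68, 7.91 and 7.77 in the LFD mice, 7.86, 6.95 and 7.00 in the HFD mice, and 7.45 and 6.97 in the ob/ob mice, with a difference of -0.55 ± 0.25 (adjusted p = 0.209), and HFD replicate 1 was among the LFD mice. Ndufaf5 and Ndufaf6 had differences of 0.14 ± 0.21 (adjusted p = 0.695) and 0.21 ± 0.23 (adjusted p = 0.576). Cox7a2l, which joins complexes III and IV into supercomplexes, had the largest spread of the 10, at 11.22 to 11.64 in LFD, 10.42 to 11.65 in HFD and 10.85 to 11.43 in ob/ob mice. Atp5s, a relative of complex I assembly genes despite its name, had a difference of 0.29 ± 0.24 (adjusted p = 0.458).

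Genes around the chain were counted from lists outside the name rule. Of 46 further assembly factors, 34 were lower in obese mice with a median of -0.15, and 4 of 46, or 8.70%, had an unadjusted p-value under 0.05, all lower, against 10.9% of all genes, among them Bcs1l, which inserts the Rieske protein into complex III, with -0.58 ± 0.20 (adjusted p = 0.139), and Ecsit with -0.93 ± 0.27 (adjusted p = 0.116). Of 20 electron carrier and coenzyme Q genes, 14 were lower with a median of -0.23, 3 of them, or 15% of the list, with an unadjusted p-value under 0.05, and Coq9, of coenzyme Q synthesis, had -0.75 ± 0.26 (adjusted p = 0.145). Of 20 tricarboxylic acid cycle genes, 16 were lower with a median of -0.22, 3 of them, again 15% of the list, with an unadjusted p-value under 0.05, and Idh2, the mitochondrial NADP-dependent isocitrate dehydrogenase, had -0.92 ± 0.27 (adjusted p = 0.117). Of 24 genes of import, carriers and cristae, 17 were lower with a median of -0.17, 2 lower, or 8.33%, and 1 higher, or 4.17%, with an unadjusted p-value under 0.05, against 10.9% and 14.5% of all genes. The higher one was Slc25a4, an ADP/ATP carrier, with 1.08 ± 0.27 (adjusted p = 0.107), while the carrier Slc25a5 had -0.47 ± 0.19 (adjusted p = 0.177). These 2 carriers exchange ADP and ATP across the inner membrane, and their differences had opposite signs.

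The 16 regulators of nuclear respiratory genes and of mitochondrial DNA were lower in 8 and higher in 8, with a median of 0.02. The coactivator Ppargc1a was 4.80, 4.69 and 5.06 in the LFD mice, 5.98, 4.22 and 5.47 in the HFD mice, and 5.60 and 3.89 in the ob/ob mice, which overlapped widely, with a difference of 0.13 ± 0.49 (adjusted p = 0.885). Its relative Pprc1 was 8.47, 8.24 and 7.83 in the LFD mice, 7.32, 7.12 and 7.94 in the HFD mice, and 7.48 and 7.44 in the ob/ob mice, with a difference of -0.72 ± 0.23 (adjusted p = 0.132), and HFD replicate 3 was above the lowest LFD mouse. Nrf1, Gabpa, Yy1 and Esrra, transcription factors of these genes, had differences of 0.06, 0.13, -0.03 and -0.02, with adjusted p-values from 0.585 to 0.958, and Esrrg, a relative of Esrra, had 0.70 ± 0.41 (adjusted p = 0.302). Of the factors of mitochondrial DNA, Tfam, which packs it, had 0.15 ± 0.15 (adjusted p = 0.521), Tfb2m, which starts its transcription, -0.47 ± 0.17 (adjusted p = 0.148), and Polg, its polymerase, -0.35 ± 0.14 (adjusted p = 0.177). The regulators with an unadjusted p-value under 0.05 were Pprc1, Tfb2m and Polg, all lower, which is 3 of 16, or 18.8%, against 10.9% of all genes.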

How the data were processed

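Pancreas RNA of 8 male mice was grouped by the sample labels into 3 LFD, 3 HFD and 2 ob/ob mice. The authors used FastQC on the reads, Salmon 0.11.3 with Gencode M18 (GRCm38.p6) for transcripts, tximport for genes, and rlog of DESeq2 1.22.2. The deposited values are these rlog values, on the log2 scale, for 15047 symbols, and the filter that left them is not given in the sources used here. Counts were not used here, so depth is unknown and errors are the spread between mice. Of all rows, 176 share every value with another row. Salmon divides reads between similar transcripts, so paralogs and overlapping genes are uncertain.

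The whole table was fitted with limma 3.58.1 (R 4.3.3), using group means, every mouse and a trended empirical Bayes step. The fit was tried on simulated data with independent genes and the same spread in every mouse. The groups here differ in spread, so those data do not show how well it does on these mice. Besides genes singled out in the text, those named are isoforms, core subunits, the genes with the lowest p-value each way and the largest and smallest spread in each complex, all regulators, and the 2 genes with the lowest p-value each way of the other lists. 1 gene is not reported here by name. Members and lists were chosen with earlier results of these data known. Promoters are those of RefSeq, and coordinates were found in Gencode M21 for 91 of 91 genes. Alternatives were no trend, only the groups compared, a minimum mean rlog value of 5, median centring, quantile normalization, the replicate number as a block, the acinar mean as a covariate, and each mouse left out. Scaling to the summed values and keeping identical rows once were added after seeing the data.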

Additional observations from a re-analysis of the deposited data

How the results depend on the processing

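The medians over the 91 genes moved by less than the SD between mice of a group, 0.228, which is larger than the HFD median itself, under every alternative except the acinar covariate and the scaling to summed values. Without 1 mouse they were -0.39 to -0.06 in HFD, -0.51 to -0.24 in ob/ob and -0.39 to -0.17 in obese against LFD. With the acinar covariate they were 0.0724 in HFD, -0.0465 in ob/ob and 0.00784 in obese against LFD. In that fit 1, 2 and 2 genes were lower and 2, 0 and 0 higher at an unadjusted p-value under 0.05 by limma. The lower ones were 1.10%, 2.20% and 2.20% of the 91, against 4.69%, 3.62% and 4.49% of all genes. On the higher side these shares were 2.20%, 0% and 0%, against 6.11%, 6.43% and 6.77%. Scaled to the summed linear values, the medians over the 91 genes were 1.14, 1.12 and 1.12. There, 0 were lower in each comparison, and 1 was higher in HFD, 1 in ob/ob and 2 in obese mice. Of all genes, 0.0199%, 0.0332% and 0.0399% were lower. The medians of all genes were 1.36 in HFD, 1.53 in ob/ob and 1.45 in obese mice. The share of all genes that was higher was not counted in this setting. Median centring gave 8 lower in HFD, or 8.79% against 10.6% of all genes, and 17 in obese mice, or 18.7% against 14.0%. Quantile normalization gave 7 lower in obese mice, or 7.69% against 12.1%. With only the groups compared, ob/ob against LFD had 18 lower, or 19.8% against 11.3% of all genes. It had 1 higher, and the share of all genes on that side was not counted. A minimum mean rlog value of 5 left 0 genes higher in HFD and in obese mice, since Cox7a1 is below it.

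Replicate numbers name different animals and the deviations of same-numbered mice correlated at -0.28 to 0.59, so they pair no mice. With the replicate block, ob/ob against LFD had 4 lower, or 4.40% against 9.04% of all genes. It had 1 higher, and the share of all genes on that side was not counted. HFD and obese against LFD had 5 and 10 lower, or 5.49% and 11.0% against 8.89% and 11.9%. Leaving out each mouse in turn gave 1 to 32 lower, 1 to 2 higher and 0 to 10 with an adjusted p-value under 0.05 in HFD, 0 to 24 lower and 0 to 1 higher in ob/ob, 4 to 40 lower, 0 to 1 higher and 0 to 17 with an adjusted p-value under 0.05 in obese mice, and 0 to 1 lower in ob/ob against HFD. The higher counts of these fits are given without the share of all genes. A group of 1 or 2 mice is assumed in such fits to vary like the others. Of 184 differences of named genes, 16 gained an adjusted p-value under 0.05, all without HFD replicate 1. The causes of these shifts were not tested. Groups of 2 and 3 mice and an unknown depth limit all of these values.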
